A study of Canis lupus familiaris with 23 samples.

Results

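The genes that build the contractile machinery of muscle were followed through 23 canine expression profiles. Members were chosen by symbol among the probe sets that carried 1 gene symbol. The symbols were those of myosin heavy and light chains (MYH, MYL), myosin-binding proteins C and H (MYBPC, MYBPH), troponins (TNNC, TNNI, TNNT), tropomyosins (TPM), actinins (ACTN), myomesins (MYOM), myozenins (MYOZ), calsequestrins (CASQ), calcium pumps of the sarcoplasmic reticulum (ATP2A), ryanodine receptors (RYR), LDB3 and the PDZ and LIM domain proteins (PDLIM), together with 9 genes named singly (TTN, NEB, DES, TCAP, CKM, ENO3, PYGM, ACTA1 and MB). Where a gene had several probe sets, the one with the highest mean value across all 23 samples stood for it. The rule gave 58 of 6540 named genes, and these 58 genes had 143 of the 23836 probe sets on the array. Of the 9 singly named genes 8 were among them, and CKM was not analysed here. By the roles assigned here, 39 members were placed mainly in skeletal or cardiac muscle (striated muscle) and 18 as broad, in smooth muscle and other cells. The remaining 1 (MYH15) was left unplaced. A choice by symbol also takes in relatives by name, such as MYLIP, a ubiquitin ligase first known for binding myosin light chains.

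The samples were 15 primary osteosarcomas removed at surgery from dogs that had not yet received chemotherapy, 2 cell lines grown from canine osteosarcoma, and pairs of kidney, liver and lymph node samples (6 in all) from dogs of a research colony. Osteosarcoma is a malignancy of bone-forming cells. No group carried an engineered allele or an experimental agent, and the labels gave neither breed nor age. The methods name the cell lines MC-KOSA and BW-KOSA, but the labels carry codes that do not say which is which. Neither normal muscle nor normal bone was in a group, so a level in normal organs is the level in kidney, liver and lymph node.

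Values are log2 expression values, on which 1 unit is a 2-fold difference. The tissues were assayed in bulk, where fewer cells of a type and less RNA per cell cannot be told apart. Single markers picked from longer lists went with the labelled tissues. Albumin (ALB) was 9.80 lower in tumors than in liver, on the log2 scale. CDH16 of kidney epithelium was 4.38 lower than in kidney and CD3D of T cells 5.75 lower than in lymph node. The type I collagen gene COL1A1 was 7.51 higher in tumors than in the 6 normal samples. Not every listed marker did so. UMOD of kidney epithelium reached 6.40 in the highest tumor and 6.42 in the highest normal sample. TTR, on the hepatocyte list, was 1.80 higher in tumors than in kidney. Of 9 bone genes measured, 3 were called higher in tumors than in the normal samples. Signal from the 5′ end of transcripts was low (the control probe sets of actin and GAPDH read over 1.5 higher at the 3′ than at the 5′ end) in 7 of the 15 tumors and in replicate 1 of each organ. The remaining 8 tumors, tumor 5 among them, had full 5′ signal.

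In striated muscle, thick filaments of myosin pull on thin filaments of actin within a repeating unit called the sarcomere. Tropomyosin lies along the thin filament and, with the troponin complex, keeps it closed until calcium released from the sarcoplasmic reticulum binds troponin C. Titin spans from the Z-disc, where thin filaments are anchored by alpha-actinin, to the M-band, where myomesins link thick filaments. Slow fibers, fast fibers and heart muscle use different genes for many of these parts, with several slow forms shared by the heart. Broadly expressed tropomyosins and non-muscle myosin II form stress fibers in cells such as fibroblasts and osteoblasts.

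Sarcomere genes stood far above all other samples in a single tumor, tumor 5. There, 25 of 58 members (43.1%) lay at least 2 log2 units (4-fold) above the median of the 15 tumors, against 473 of all 23836 probe sets (1.98%). The first share takes 1 probe set per gene, and the second takes every probe set, members included. Of all 143 member probe sets 54 passed. The share over all named genes was not computed. Of these 25 genes, 24 were placed in striated muscle by the roles assigned here, DES of all muscle types among them. The remaining 1, MYH11, is the myosin heavy chain of smooth muscle. Each of the 25 was higher in tumor 5 than in any of the 22 other samples. The median gap of the 39 striated members, meaning the value in a tumor minus the median of the 15 tumors, was 3.90 in tumor 5 and lay between -0.16 and 0.30 in the other 14 tumors. The broad members showed no such shift in tumor 5, with a median gap of -0.05. A muscle signal in 1 tumor was known when the genes were chosen, so these values describe the tumor and no test was applied.

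**Figure D1:**
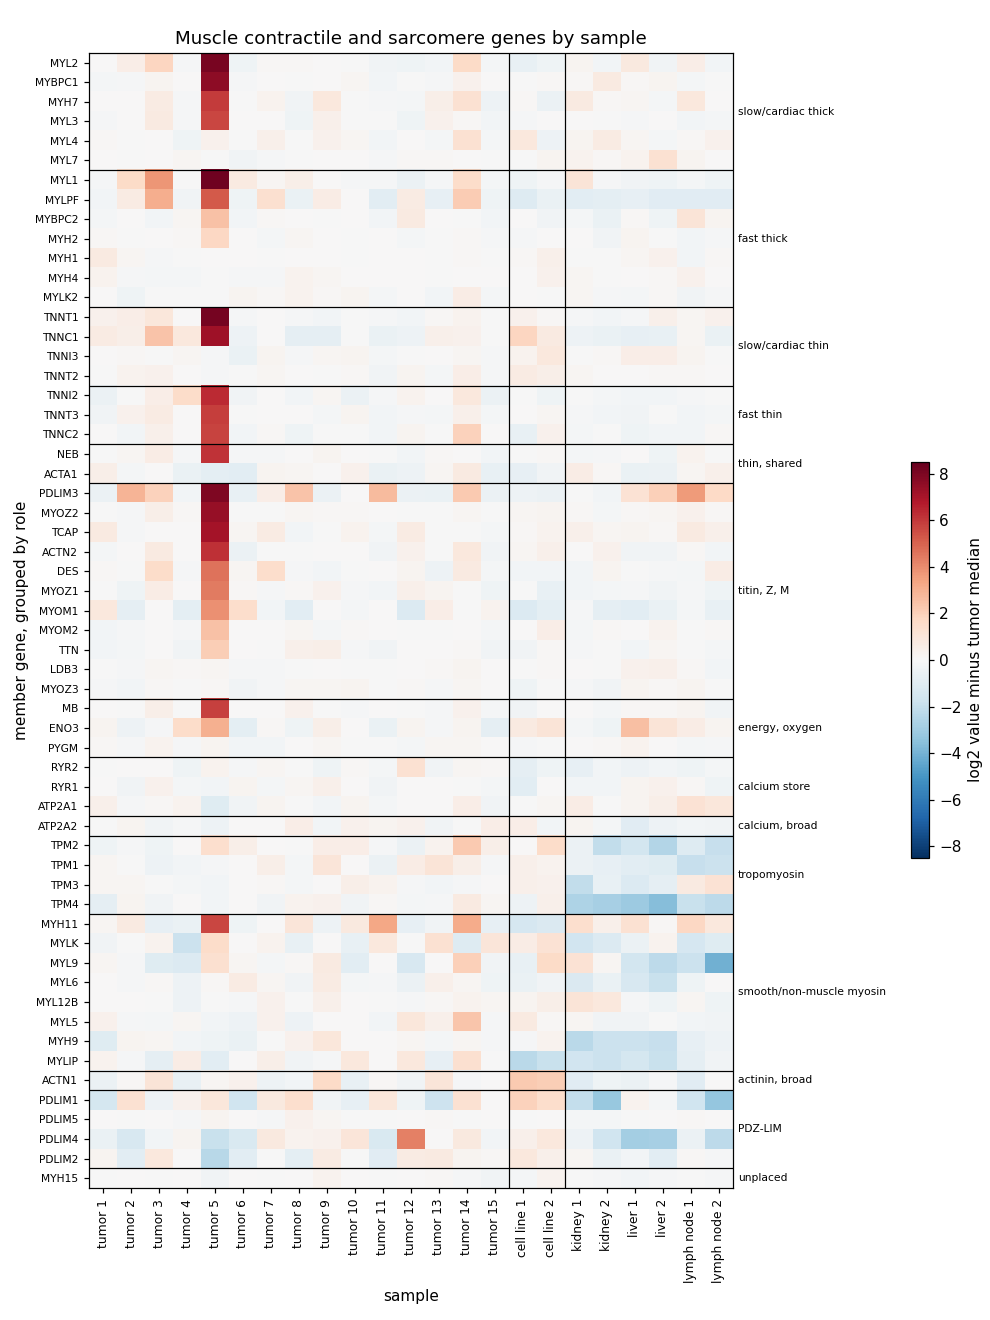
Log2 value minus the median of the 15 tumors (color) for the 58 members (rows, grouped by role) in 23 samples (columns: 15 tumors, 2 cell lines, 6 normal organ samples). The column of tumor 5 is red through most slow, fast, titin, Z-disc and M-band rows, with 25 members at 2 or more.

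The parts of the thick filament in slow fibers and heart were among the genes with the largest gaps. MYL2, the regulatory light chain of slow and ventricular myosin, had the lowest tumor at 4.45, the median tumor at 4.82 and tumor 5 at 12.89, a 270-fold difference from the median. The next tumor, tumor 3, reached 6.61, and the 6 normal organ samples had a lowest, median and highest value of 4.50, 4.81 and 5.63. Tumor 5 thus lay more than 6 log2 units above every other sample for MYL2. MYH7, the slow and ventricular myosin heavy chain, had the lowest tumor at 5.79, the median tumor at 6.19 and tumor 5 at 12.16, a 62.4-fold difference, with tumor 14 next at 7.49. MYBPC1, the slow form of myosin-binding protein C, had the lowest tumor at 2.95, the median tumor at 3.20 and tumor 5 at 10.78, and no other tumor exceeded 3.56. The remaining tumors overlapped the normal organs (3.02 to 3.94) for MYBPC1. In this group of 6 genes 4 passed the gap of 2. The 2 that did not, MYL4 at a gap of 0.36 and MYL7 at -0.04, are the light chains of atrial muscle.

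Fast-fiber thick filament genes were present beside the slow ones. MYL1, the essential light chain of fast fibers, had the largest gap of all 58 members, with the lowest tumor at 3.66, the median tumor at 4.15 and tumor 5 at 12.44, a 313-fold difference. Tumor 3 was next at 7.91, above the normal range of 3.75 to 5.25. MYLPF, the fast regulatory light chain, read 10.35 in tumor 5, 8.22 in tumor 3 and 7.27 in tumor 14 against a tumor median of 5.13. Of the 7 fast thick-filament members 3 passed the gap of 2, the third being MYBPC2 at 2.46. The fast myosin heavy chains themselves did not. MYH2 of fast oxidative fibers had a gap of 1.78, just outside the limit, while MYH1 had 0.02 and MYH4 0.00. The other probe set of MYH1 had a gap of 1.60, and that of MYH2 0.34. MYH4, MYH1 and MYH2 are neighbors in the RefSeq annotation of the dog genome (assembly UU_Cfam_GSD_1.0) and close paralogs, so that probe sets may share signal among them.

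Troponin genes followed the same split into slow, fast and cardiac forms. TNNT1, the slow skeletal troponin T, had the lowest tumor at 3.50, the median tumor at 3.73 and tumor 5 at 11.84, a 277-fold difference, and every other sample lay at or below 4.70. TNNC1, the troponin C of slow and cardiac muscle, had the lowest tumor at 4.34, the median tumor at 5.13 and tumor 5 at 12.31, with tumor 3 next at 7.58. The cell lines, at 6.93 and 5.89, lay above the normal range of 4.44 to 5.29 for TNNC1. The 3 fast skeletal troponins all passed the gap of 2. TNNI2, the fast inhibitory subunit, had the lowest tumor at 3.42, the median tumor at 3.94 and tumor 5 at 10.28, with tumor 4 next at 5.50. TNNT3, the fast troponin T, had the lowest tumor at 2.95, the median tumor at 3.27 and tumor 5 at 9.15, and TNNC2, the fast troponin C, had the lowest tumor at 3.50, the median tumor at 3.84 and tumor 5 at 9.56. For TNNC2, tumor 14 was next at 5.79, and no normal sample exceeded 3.93. By contrast the cardiac forms TNNI3 and TNNT2 had gaps of -0.07 and -0.08 in tumor 5. TNNI3 and TNNT1 lie next to each other in the RefSeq annotation, and their gaps in tumor 5 were -0.07 and 8.11.

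**Figure D2:**
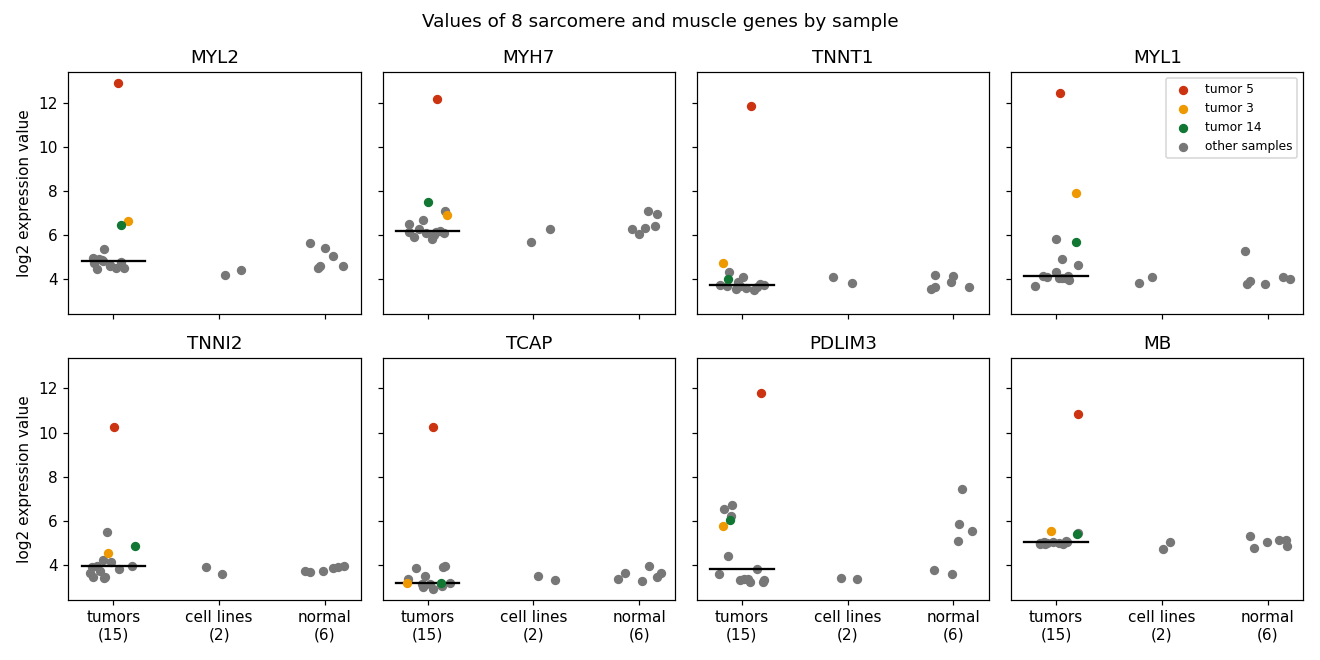
Log2 expression value (y axis) of 8 members in the 15 tumors, 2 cell lines and 6 normal organ samples (x axis), with a black line at the tumor median. Tumor 5 (red) lies above all other samples in every panel, and tumor 3 (orange) is next for MYL1 at 7.91 and MYL2 at 6.61.

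Genes of the Z-disc, M-band and elastic filament made up the group with the most members above the limit, 9 of 11. PDLIM3, a Z-disc protein that binds alpha-actinin, had the lowest tumor at 3.20, the median tumor at 3.83 and tumor 5 at 11.78. Lymph node (7.45 and 5.53) and liver (5.09 and 5.84) also carried it above kidney (3.77 and 3.59), and tumors 2, 3, 8, 11 and 14 lay between 5.77 and 6.73. MYOZ2, the myozenin of slow and cardiac muscle, had the lowest tumor at 3.15, the median tumor at 3.24 and tumor 5 at 10.62, and no other sample exceeded 3.76. TCAP, which caps titin at the Z-disc, had the lowest tumor at 2.92, the median tumor at 3.18 and tumor 5 at 10.25, and the other tumors (up to 3.93) overlapped the normal organs (up to 3.96). ACTN2, the alpha-actinin of striated Z-discs, had the lowest tumor at 4.35, the median tumor at 4.86 and tumor 5 at 11.09. DES, the intermediate filament desmin of all muscle types, had the lowest tumor at 5.88, the median tumor at 6.33 and tumor 5 at 10.97, with tumor 3 next at 7.87. TTN, the gene of titin, was the member just inside the limit, with the lowest tumor at 5.96, the median tumor at 6.28 and tumor 5 at 8.37 on its chosen probe set, although its other probe sets spread widely (described with the probe sets). The remaining genes of the group above the limit were MYOZ1 (gap 4.44), MYOM1 (3.90) and MYOM2 (2.49), while LDB3 (0.15) and MYOZ3 (0.13) stayed near the tumor median.

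Along the thin filament, NEB (nebulin, which lines the thin filaments of skeletal muscle) had the lowest tumor at 2.97, the median tumor at 3.20 and tumor 5 at 9.34, a 70.4-fold difference, and no other sample exceeded 3.81. The chosen probe set of ACTA1, the actin of skeletal muscle, went the other way, with 6.39 in tumor 5 against a median of 7.20. MB, the oxygen-storing myoglobin of heart and oxidative skeletal fibers, had the lowest tumor at 4.92, the median tumor at 5.02 and tumor 5 at 10.85, and the 6 normal samples had a lowest, median and highest value of 4.75, 5.10 and 5.29. ENO3, the muscle form of the glycolytic enzyme enolase, had the lowest tumor at 5.19, the median tumor at 6.0 and tumor 5 at 9.0, but liver also carried it, at 8.54 and 7.12. Liver 1 thus came close to tumor 5 for ENO3. PYGM, the glycogen phosphorylase of muscle, read 4.66 in tumor 5 against a median of 4.43 on its chosen probe set. None of the 3 calcium-store members of striated muscle (ATP2A1, RYR1 and RYR2) passed the gap of 2 on the chosen probe set, with gaps from -1.05 to 0.28.

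Among the 18 broad members, MYH11 alone passed the limit upward in tumor 5, with the lowest tumor at 5.09, the median tumor at 5.81 and tumor 5 at 11.51, and PDLIM2 alone passed it downward, with 5.57 against a median of 7.92. MYH11 was also high in tumor 11 (9.06) and tumor 14 (8.95), above the normal range of 5.88 to 7.57. The 4 tropomyosins had gaps of 1.42 (TPM2), -0.10 (TPM1), -0.21 (TPM3) and -0.26 (TPM4) in tumor 5. MYLK, the myosin light chain kinase of smooth muscle, was just outside the limit at 1.55. These genes, like others with 5 or fewer in a count, were named after their values were seen.

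Several members gave different answers from different probe sets. Over all 143 probe sets, 54 lay at least 2 above their tumor median in tumor 5, and they came from 32 of the 58 genes. In 7 of these 32 genes the probe set with the highest mean was not among them. ACTA1 had 4 probe sets, of which 2 had gaps of 6.59 and 6.50 and 2 had gaps of -0.13 and -0.81. On the first of them tumor 5 read 9.52, the next tumor 3.31 and the normal organs at most 3.03. ATP2A1, the calcium pump of fast fibers, had 1 of 3 probe sets above the limit (3.92), and ATP2A2, the pump of slow and cardiac muscle that other cells also use, had 3 of 10 (up to 4.78). The other 4 genes were PDLIM5 (up to 5.56), TPM1 (3.46), PYGM (2.89) and MYL9 (2.13). In TTN, 8 of 20 probe sets passed the limit, and their gaps ran from -0.37 to 7.23 over the 20. The 2 probe sets of MB (gaps 5.83 and 6.32), the 3 of ACTN2 (5.84 to 6.82) and the 2 of MYLPF (4.76 and 5.22) were all above it. No probe set of the remaining 26 genes was. Which transcripts each probe set reads was not examined.

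**Figure D3:**
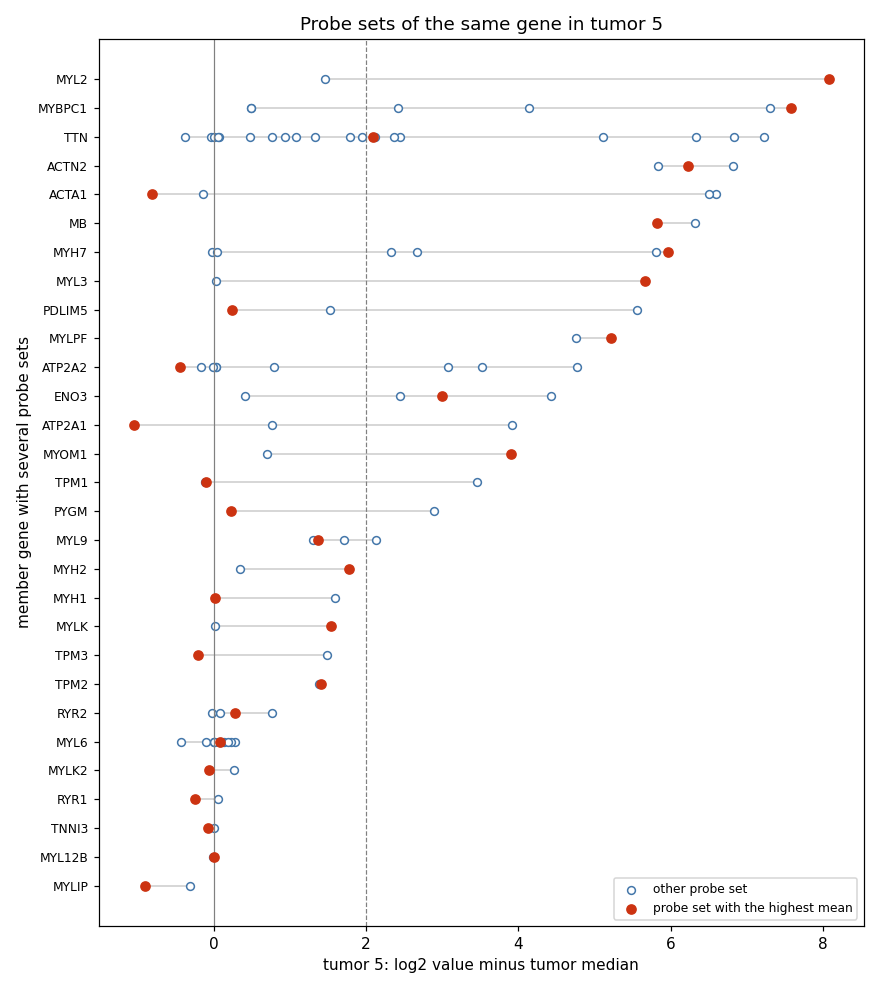
Value in tumor 5 minus the tumor median (x axis, log2) for every probe set of the 29 members with several probe sets (y axis), the probe set with the highest mean filled in red and the others open. For ACTA1, ATP2A1, ATP2A2, PDLIM5, PYGM, TPM1 and MYL9 at least 1 open point lies past the dashed line at 2 and the red point does not.

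Some muscle genes outside the rule also stood high in the same tumor. Of 80 other genes of striated muscle on a list that held no member, 37 were measured, and 17 of these had a gap of at least 2 in tumor 5, with a median gap of 1.79 against -0.13 to 0.18 in the other tumors. LMOD2, which regulates thin-filament length, had a gap of 7.64, the small heat shock protein HSPB7 5.50, the nebulin relative NRAP 5.34 and KLHL41 5.31. Below their medians lay FHL3 (-0.09), PHKG1 (-0.19) and CKMT2 (-0.65), and for CKMT2 tumor 5 was the lowest tumor. Of 20 myogenic regulators 3 were measured (EYA1, MEF2C and MYOCD), with a median gap of 0.00 in tumor 5. Ranked by gap, the 50 leading genes in tumor 5 (4.12 or more) held 20 members, which were 40% of the 50 and 34.5% of the members.

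Some markers of other tissue moved with the muscle genes, and others did not. The median gap in tumor 5 was 0.10 for pericyte, -0.03 for lymphocyte, -0.08 for hepatocyte and -0.09 for kidney epithelium genes. It was 0.37 for Schwann cell and nerve genes, of which MBP (2.58) passed the gap of 2. Of 12 adipocyte genes 6 were measured, and 4 passed the gap of 2 in tumor 5: the adipocyte hormone ADIPOQ (6.17), lipoprotein lipase LPL (4.51), CD36 (3.80) and CIDEA (3.41). PCK1 had a gap of 0.03, and LEP, at -0.20, was lowest in tumor 5. The median gap of the adipocyte genes was 3.60 in tumor 5 and -0.41 to 1.03 in the other tumors. The 5 endothelial genes measured of 11 had a median gap of 1.54, and PECAM1, TEK and VWF were highest in tumor 5. FLT1 (0.18) and TIE1 (0.11) lay near their medians, with 4 and 5 tumors above tumor 5. Of 10 smooth muscle genes measured of 16, SYNPO2 (4.45) and ACTG2 (3.29) passed, with a median gap of 0.92 that tumor 14 exceeded at 1.04. ACTA2, PCP4, CSRP1 and SYNM had gaps from 0.77 to 1.10, while CALD1 (-0.12), TAGLN (-0.18), SMTN (-0.57) and FHL2 (-1.57) lay below their medians. For SMTN and FHL2 tumor 5 was the lowest tumor. In the opposite direction, 9 bone and osteoblast genes measured of 15 had a median gap of -1.12 in tumor 5 against -0.43 to 0.37 in the others. COL1A1 read 9.58 in tumor 5, the lowest of the 15 tumors, against a median of 13.49, and COL1A2, SPARC, SPP1 and ALPL were also lowest there. PTH1R and BGLAP lay -3.84 and -0.80 from their tumor medians, RUNX2 was itself the median tumor, and PHEX went the other way, with a gap of 1.78 and 1 tumor above it. COL1A1 in tumor 5 still lay above the highest normal sample at 6.64. The part of adjoining tissue in these values was not tested. The 5′ index of tumor 5 was -0.32, and measured from the median of the 8 tumors with full 5′ signal the count of members at least 2 above was again 25.

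Away from tumor 5, at most 5 of the 58 members stood out in any tumor. Tumor 14 had 5 members at least 2 above the tumor median, tumor 3 had 3, tumor 11 had 2, tumors 2, 8 and 12 had 1 each, and the other 8 had 0. Across all 23836 probe sets the same count ran from 50 (0.21%) to 186 (0.78%) in these 14 tumors. It was 0.56% of all probe sets in tumor 14 and 0.62% in tumor 3. In both tumors the share of the 58 members was larger than that, and the excess was not tested. In tumor 3 the 3 genes were the fast light chains MYL1 (gap 3.76) and MYLPF (3.10) and the slow troponin TNNC1 (2.45). Tumor 3 was the second-highest tumor in 12 of the 25 genes that stood out in tumor 5, and tumor 14 in 4. Tumor 14 itself combined MYLPF (2.14) and PDLIM3 (2.21) with MYH11 (3.14), MYL5 (2.36) and TPM2 (2.21), which the roles assigned here place among the broad members. PDLIM3 was the gene of tumors 2 and 8 and, with MYH11, of tumor 11. In tumor 12 it was PDLIM4, a broadly expressed actin-associated protein, at 10.81 against a median of 6.51. The median gaps of the striated members in tumors 3 and 14 were 0.30 and 0.25, small beside 3.90 in tumor 5.

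**Figure D4:**
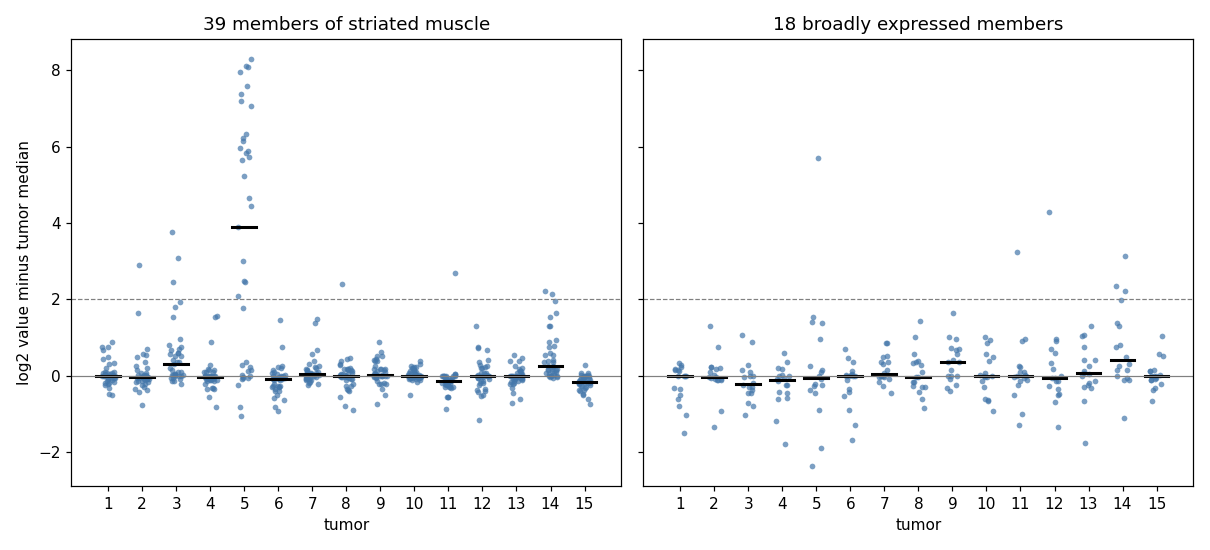
Value minus the median of the 15 tumors (y axis, log2) of the 39 striated members (left) and the 18 broad members (right) in each tumor (x axis); each point is a gene, bars are medians and the dashed line marks 2. The striated bar sits at 3.90 in tumor 5 and within 0.31 of 0 elsewhere.

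Tumors as a group were then set against the 6 normal organ samples. The tropomyosins TPM1, TPM2 and TPM4, the non-muscle myosin heavy chain MYH9 and the ubiquitin ligase MYLIP were higher in tumors, and no striated member passed the threshold. By limma at an adjusted p of 0.01, 5 of 58 members were higher in tumors, against 3.02% of all probe sets, and 0 were lower, against 2.93% of all probe sets. The 5 were all broad members, so that 5 of 18 broad and 0 of 39 striated members passed. At an unadjusted p under 0.05, limma gave 5 of the 39 striated members, and 4 with tumor 5 left out. Of the 5, ATP2A1 (-0.60), MYL7 (-0.39) and TNNI3 (-0.24) were lower in tumors, and RYR2 (0.41) and MYLPF (1.57) higher. The share of all probe sets at that unadjusted p was not computed, here or in the later comparisons. The median difference of the 58 members was 0.39, against -0.02 over all probe sets. For the striated members the median difference was 0.24 with tumor 5 and 0.02 without it.

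TPM4, a tropomyosin of non-muscle cells, separated the groups completely. It read 10.52 in the lowest, 11.31 in the median and 12.07 in the highest tumor, and 8.71 and 8.47 in kidney, 8.22 and 7.70 in liver, and 9.44 and 9.07 in lymph node. Tumors averaged 11.30 ± 0.36 (SD, n = 15) and normal samples 8.60 ± 0.62 (SD, n = 6), a difference of 2.70 ± 0.21 (SE; adjusted p = 4.37e-08, limma). All 15 tumors lay above all 6 normal samples.

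TPM2, best known from slow muscle fibers and smooth muscle, read 8.25, 8.76 and 10.97 in the lowest, median and highest tumor. In the organs it read 8.26 and 6.68 in kidney, 7.23 and 6.29 in liver, and 7.67 and 6.80 in lymph node. The difference was 1.91 ± 0.34 (SE; adjusted p = 0.000681, limma), and 14 of 15 tumors exceeded every normal sample. The highest tumors for TPM2 were tumors 14 and 5, and without tumor 5 the difference was 1.83. The other TPM2 probe set did not pass, at 0.23 ± 0.22 (SE; adjusted p = 0.556).

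TPM1, whose forms occur in striated, smooth and non-muscle cells, had 11.45, 11.96 and 13.04 in the lowest, median and highest tumor, and 11.48 and 11.30 in kidney, 11.04 and 10.95 in liver, and 10.02 and 10.14 in lymph node. Kidney came closest, and 14 of 15 tumors lay above all normal samples, with a difference of 1.30 ± 0.24 (SE; adjusted p = 0.00129, limma). Its other 2 probe sets did not pass, at 2.22 ± 0.61 (SE; adjusted p = 0.0193) and 0.40 ± 0.15 (SE; adjusted p = 0.094). With each organ averaged to 1 profile the call of TPM1 was lost (adjusted p = 0.017). TPM3, the remaining tropomyosin, had a difference of 0.46 ± 0.31 (SE; adjusted p = 0.367) and no tumor outside the normal range, since lymph node (11.46 and 11.98) lay above every tumor and kidney and liver below every tumor.

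MYH9, the heavy chain of non-muscle myosin IIA, had 9.20, 10.22 and 11.20 in the lowest, median and highest tumor. The organs read 7.96 and 8.41 in kidney, 8.42 and 8.28 in liver, and 9.52 and 9.82 in lymph node, so that 13 of 15 tumors lay above all of them and lymph node overlapped the tumors. Its difference was 1.46 ± 0.25 (SE; adjusted p = 0.000589, limma). MYLIP, the ubiquitin ligase that marks the LDL receptor for degradation, had 8.44, 9.34 and 10.72 in the tumors and 7.73 and 7.49 in kidney, 7.83 and 7.46 in liver, and 8.60 and 9.03 in lymph node. Here 12 of 15 tumors exceeded all normal samples, with tumor 5 the lowest tumor, and the difference was 1.43 ± 0.30 (SE; adjusted p = 0.0034, limma). Both MYLIP probe sets passed, the other at 1.52 ± 0.30 (SE; adjusted p = 0.00208). The call on the chosen probe set was lost when 1 kidney or 1 liver sample was left out (adjusted p from 0.0111 to 0.0133 over these 4 fits), and with 1 averaged profile per organ (adjusted p = 0.0373).

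Within arrays of like 5′ signal the differences kept their direction. For the 7 tumors and 3 organ samples with low 5′ signal they were 2.47 for TPM4, 1.31 for TPM2, 1.32 for TPM1, 1.51 for MYH9 and 1.90 for MYLIP. For the 8 tumors and 3 organ samples with full signal they were 2.92, 2.5, 1.28, 1.41 and 1.03 in the same order. By limma TPM4 passed in both sets of arrays and TPM2 in the full-signal arrays, and the other 3 genes passed in neither at these smaller numbers. Other broad members with large differences missed the threshold: PDLIM4 at 1.82 ± 0.64 (SE; adjusted p = 0.0675), PDLIM1 at 1.71 ± 0.57 (SE; adjusted p = 0.0532) and MYL6, the common essential light chain of non-muscle myosin, at 0.92 ± 0.23 (SE; adjusted p = 0.0103). Another MYL6 probe set passed, at 1.28 ± 0.31 (SE; adjusted p = 0.00868), and its remaining ones did not. ATP2A2, at 0.37 on its chosen probe set (adjusted p = 0.132), passed on another, at 1.72 ± 0.33 (SE; adjusted p = 0.00153). Among the striated members the fast light chain MYLPF had the largest difference, 1.57 ± 0.67 (SE; adjusted p = 0.133), with 13 of 15 tumors above all normal samples, and it was 1.24 without tumor 5.

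**Figure D5:**
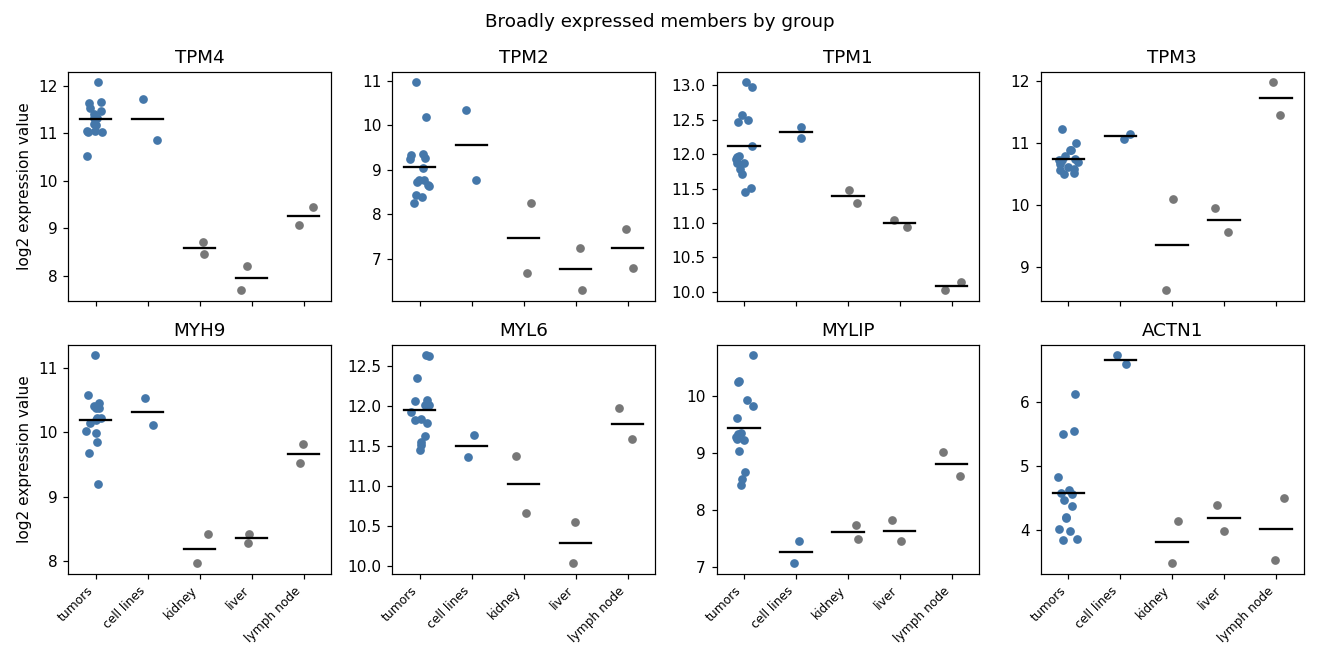
Log2 expression value (y axis; scales differ between panels and do not start at 0) of 8 broad members by group (x axis), each point 1 sample and each line a group mean. TPM4 in tumors (10.52 to 12.07) lies clear of every organ sample, and TPM3 in lymph node lies above the tumors.

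Each organ was also compared with the tumors on its own, in 1 model of all 5 groups that used the same 15 tumors each time. Against kidney, 4 members were higher in tumors (2.0% of all probe sets were) and 1 was lower (5.26%). These were TPM4 at 2.71 ± 0.27 (SE; adjusted p = 2.52e-07, limma), MYH9 at 2.01 ± 0.30 (adjusted p = 5.64e-05), MYLIP at 1.84 ± 0.43 (adjusted p = 0.00549) and TPM3 at 1.38 ± 0.23 (adjusted p = 0.000276). The lower gene was MYL12B, a regulatory light chain of non-muscle myosin, with kidney at 10.13 and 9.91 and tumors from 8.58 to 9.43, a difference of -0.95 ± 0.16 (SE; adjusted p = 0.000356, limma). The 2 kidney samples lay above every tumor for MYL12B. TPM3 differed widely between the 2 kidney samples (8.63 and 10.09), and without the first the difference was 0.64 (adjusted p = 0.102). The calls of MYLIP and MYL12B were also lost without that sample (adjusted p = 0.0588 and 0.0296), which left MYH9 and TPM4, and MYLIP was lost without the second kidney sample too (adjusted p = 0.0868). The other probe sets of TPM3 and MYL12B did not pass against kidney, at 0.30 (adjusted p = 0.669) and -0.11 (adjusted p = 0.687). MYL6 was not called on its chosen probe set (0.93, adjusted p = 0.0247) but passed on several others, at 1.17 to 1.26.

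Against liver, 6 members were higher in tumors (3.42% of all probe sets) and 1 was lower (5.86%). TPM4 had the largest difference at 3.34 ± 0.27 (SE; adjusted p = 5.65e-09, limma), followed by TPM2 at 2.30 ± 0.55 (adjusted p = 0.0058), MYH9 at 1.85 ± 0.30 (adjusted p = 0.00012), MYLIP at 1.81 ± 0.43 (adjusted p = 0.00518) and MYL6 at 1.66 ± 0.27 (adjusted p = 0.00011). TPM3 was the sixth. By limma the other probe sets of TPM2 and TPM3 did not pass against liver, at 0.35 (adjusted p = 0.599) and 0.27 (adjusted p = 0.65). MYL6 read 10.56 and 10.04 in liver, below all tumors (11.46 to 12.64). The lower gene was the atrial light chain MYL7, at 3.62 and 4.60 in liver and 3.02 to 3.46 in tumors, a difference of -0.80 ± 0.15 (SE; adjusted p = 0.000792, limma). It rested on 1 liver sample: without liver 2 it was -0.32 (adjusted p = 0.228). Liver samples also decided other calls, with 3 members higher without liver 1 (MYH9, MYL6 and TPM4) and 2 without liver 2 (MYH9 and TPM4). With tumor 5 left out, ENO3 passed as lower in tumors than in liver, beside MYL7. A probe set that did not represent ATP2A2 was higher in tumors than in liver, at 2.32 ± 0.50 (SE; adjusted p = 0.00237, limma).

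Against lymph node, 2 members were higher in tumors (1.33% of all probe sets) and 1 was lower (2.91%). TPM1, at 10.02 and 10.14 in lymph node, was higher in every tumor by a mean of 2.03 ± 0.32 (SE; adjusted p = 0.000189, limma). TPM4 was higher by 2.04 ± 0.27 (SE; adjusted p = 3.2e-05, limma). The other probe sets of TPM1 did not pass by limma, at 3.04 (adjusted p = 0.0533) and 0.55 (adjusted p = 0.231). Without lymph node 1 the call of TPM1 was lost (adjusted p = 0.0105). ATP2A1, the calcium pump of fast fibers, was lower in tumors by 1.11 ± 0.26 (SE; adjusted p = 0.00992), with lymph node at 7.94 and 7.73 and tumors from 5.69 to 7.29. That call sat at the threshold and was lost without either lymph node sample (adjusted p = 0.169 and 0.0972), and the mean of its 3 probe sets gave a difference of -0.25 (adjusted p = 0.742). TPM4 was the member called higher in tumors against each of the 3 organs.

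Cultured osteosarcoma cells, which hold no surrounding tissue, were compared with the tumors. By limma 1 member was higher in the cell lines (3.77% of all probe sets) and 1 was lower (2.5%). ACTN1, the non-muscle alpha-actinin of stress fibers and focal adhesions, read 6.72 and 6.59 in the cell lines against 3.83, 4.47 and 6.11 in the lowest, median and highest tumor, a difference of 2.08 ± 0.45 (SE; adjusted p = 0.00436). Both cell lines exceeded every tumor. MYLIP went the other way, at 7.07 and 7.45 against a lowest tumor of 8.44, a difference of -2.19 ± 0.43 (SE; adjusted p = 0.00203, limma). Neither call held with 1 of the 2 cell lines left out (adjusted p from 0.0231 to 0.0690), although the differences remained between 2.01 and 2.15 for ACTN1 and between -2.38 and -2.0 for MYLIP. Striated members had a median difference of -0.34, or -0.05 with tumor 5 left out, and 0 of 39 passed by limma. At an unadjusted p under 0.05 there were 4, or 6 with tumor 5 left out. A probe set that did not represent ATP2A2 was lower in the cell lines, at -0.55 ± 0.13 (SE; adjusted p = 0.00737, limma).

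Differences among the 3 organs were tested on the 6 normal samples. By limma's moderated F-test 0 of 58 members passed an adjusted p of 0.01, against 3.09% of all probe sets, and 14 had an unadjusted p under 0.05. With the replicate number as a block the count was also 0. The smallest adjusted p among the members was 0.0195 for TPM1, lowest in lymph node, followed by 0.0304 for MYH9, highest in lymph node. MYL9, a regulatory light chain of smooth muscle and non-muscle myosin, had the widest spread of organ means, 3.70, from kidney (mean 10.47) to lymph node (7.91 and 5.63), and the 2 lymph node samples themselves differed by more than 2. Smooth and non-muscle myosin genes, with MYLK and MYLIP, made up 6 of the 14 and tropomyosins 3.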

How the data were processed

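Samples were grouped by their GEO labels and are named by group and replicate number. Per the methods, RNA was labelled by the Affymetrix one-cycle protocol and hybridized to Canine Genome version 1.0 arrays, batched as a group at a single facility. The authors summarized the probe intensities with robust multi-array averaging (RMA), and the deposited values are on a log2 scale (23913 probe sets, 2.52 to 14.17, 0 missing). RMA makes all arrays share 1 distribution, and it compresses differences among dim probe sets, which understates gaps measured from a dim median. The submitters' processing notes name RMA and the affy package, with versions not given in the sources used here. Arrays have no read depth, so precision rests on how many there were.

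After 77 control probe sets were set aside, 23836 were tested. The platform annotation gave 1 symbol for 10549 of them, several for 138 and none for 13149, and all 58 member symbols were also in RefSeq. The members, their roles and the marker lists were chosen with earlier results of these data known. Named genes were the members past the threshold in tumor versus normal, up to 5 per direction in each other comparison, the 15 with the largest gap between their highest tumor and the tumor median, and the singly named members; others with small counts were named after their values were seen.

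Group differences were fitted by limma 3.58.1 (R 4.3.3) through lmFit and eBayes, and two-sided p-values were adjusted over 23836 probe sets by Benjamini-Hochberg, with a threshold of 0.01. Tumor versus normal used 15 and 6 samples, and the single organs and the cell lines were contrasts in a model of all 23 samples in 5 groups. Organs were compared by a moderated F-test on the 6 normal samples. The study describes the organ samples as biological replicates, but the labels do not say which came from separate dogs, so p-values measure the spread between these samples. Same-numbered organ samples deviated together from their organ means (r = 0.607, 0.596 and 0.530 across probe sets, all above 0.1). The replicate number was therefore tried as a block in the organ test, and the main fits used no pairing. The same split separates low from full 5′ signal, so these correlations cannot tell shared dogs from shared signal quality. Alternatives were a filter on dim probe sets (5 in at least 2 samples), trended and robust variance, arrays centred on their medians, the mean of all probe sets of a gene, a threshold of 0.05, the 5′ index as covariate, low and full 5′ arrays apart, the organ as a random block, 1 averaged profile per organ, the replicate block, and leaving out each sample in turn. Tables and figures were made with Python 3.11.15, numpy 2.4.6, pandas 2.3.3 and matplotlib 3.10.9.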

Additional observations from a re-analysis of the deposited data

Results flagged for a closer look

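In 7 member genes a probe set that did not represent its gene stood at least 2 log2 units above its tumor median in tumor 5, outside the values compared between groups. The highest such gap was 6.59 for ACTA1 (skeletal actin), 5.56 for PDLIM5 (a Z-disc and stress fiber protein) and 4.78 for ATP2A2 (the slow and cardiac calcium pump). It was 3.92 for ATP2A1, 3.46 for TPM1, 2.89 for PYGM and 2.13 for MYL9. On these probe sets tumor 5 was above every normal sample, with 11.58 against at most 7.32 for ATP2A2 and 9.02 against at most 3.62 for PDLIM5. The probe sets that represented these genes had gaps from -1.05 (ATP2A1) to 1.38 (MYL9) in the same tumor.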

How the results depend on the processing

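No result changed direction under any alternative. In tumor versus normal the 5 higher members became 1 in the low 5′ arrays, 2 in the full 5′ arrays and 3 with 1 averaged profile per organ, and the lower count went from 0 to 2 at a threshold of 0.05. Against liver the lower count of 1 became 0 with dim probe sets left out, 2 with trended and robust variance, 2 with the mean of all probe sets and 3 at 0.05. Against lymph node the 2 higher became 5 at 0.05. The 1 lower became 0 with trended and robust variance, centred arrays or the mean of all probe sets, and 2 with dim probe sets left out, at 0.05 or with the 5′ index as covariate. For the cell lines the 1 higher became 3 with centred arrays and at 0.05, and the organ test went from 0 to 2 at 0.05. The median gap of the striated members in tumor 5 fell from 3.90 to 2.76 with the mean of all probe sets, which averages in probe sets that differ. The cause of the other changes was not tested.

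Leaving out 1 sample gave 4 to 6 members higher and 0 lower in tumor versus normal, 2 to 4 higher and 0 to 1 lower against kidney, 2 to 7 and 0 to 2 against liver, and 1 to 3 and 0 to 2 against lymph node. It gave 0 to 2 higher and 0 to 1 lower in the cell lines, 0 in the organ test, and 25 members and a median gap of 3.90 to 3.91 for tumor 5. The replicate block left the organ count at 0. Where an organ or the cell lines were left with 1 sample, it was assumed to vary like the other groups. Measured from the 8 full 5′ tumors, an alternative added after seeing the data, tumor 5 had 25 members and a median gap of 3.74, and with any probe set of a gene, also added later, 32 members. Of the single-gene values, 594 kept their call and 53 lost it.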

Other observations

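Several other genes with large gaps in tumor 5 were on none of the muscle and marker lists. PDK4, which restrains the entry of glucose carbon into the citric acid cycle, had a gap of 6.91 from the tumor median, STRIT1, a micropeptide that activates the muscle calcium pump, 6.03, and NEXN, a Z-disc actin-binding protein, 5.19. The cytokine IL6 had a gap of 7.24, the endothelial adhesion molecule SELE 5.41, IL33 4.97, PTGS2 (an enzyme of prostaglandin synthesis) 4.70, the chemokine CCL2 4.06 and CXCL8 4.05. The fibrinogen chain FGG had 5.04. These genes were named after their values were seen, each value is from 1 array, and none was tested.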
